A study of Salmo salar with 40 samples.

Results

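Krueppel-like factors 9 and 11 (KLF9 and KLF11) are transcription factors with zinc fingers, and 6 gene entries with these names were followed in liver RNA of Atlantic salmon, out of 79140 entries in the deposited count table. 5 are named Krueppel-like factor 9 (LOC106585360, LOC106584385, LOC106602470, LOC106598834 and LOC106568757) and 1 is named Krueppel-like factor 11 (LOC100194692). Of these, 2 were chosen by measured values: LOC106585360 was picked for its difference between lufenuron-exposed and control fish at day 8, and LOC100194692 for its difference at day 14. The other 4 were added because they carry the KLF9 name. The differences that chose a gene, and every contrast that shares fish with them for that gene, are therefore given as descriptions with no test. The day 8 lufenuron contrast of every KLF9 entry, and the difference of the lufenuron effect between the days for all 6 entries, are treated in the same way.

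The table names 7 entries KLF9 and 3 entries KLF11. The remaining KLF9 entries, LOC106584259 and LOC106585715, had 7 and 4 reads in all over 40 fish and could not be compared. The remaining KLF11 entries, LOC106567189 and LOC106607663, had reads in every fish and are described after the chosen genes.

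KLF9 and KLF11 belong to the family of Krueppel-like and Sp factors, which bind GC-rich boxes in promoters. In mammals KLF9 is switched on by glucocorticoid and thyroid hormones and by the circadian clock, and in zebrafish it is a target of the glucocorticoid receptor; in mouse liver it takes part in the control of glucose production. KLF11, with its close relative KLF10, was found in mammals as an early gene induced by transforming growth factor beta (TGF-beta), and it represses its targets by recruiting the Sin3 corepressor with its histone deacetylases. Salmonids descend from an ancestor that duplicated its whole genome, so several copies of such a gene are usual in Atlantic salmon.

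Livers of 40 fish, 10 in each of 4 groups, were sequenced after selection of polyadenylated RNA. Control fish (dose 0) and fish given lufenuron at 5 mg/kg were sampled at day 8, which was 1 day after the treatment ended, and other fish of both kinds at day 14, which was 7 days after it ended. Lufenuron stops chitin formation in arthropods and serves against sea lice on farmed salmon. No allele or transgene is named for any group. The sources used here do not give strain, age, tank, route of dosing or time of day. A p-value therefore sets a group difference only against the spread between these fish. Whether the groups also differed in tank or in another of these respects cannot be told.

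Total counts per fish ran from 43.4 M to 76.8 M reads (median 56.7 M). Levels are in CPM, the counts of a gene relative to the scaled total of its library, and at this depth 1 CPM is at least 41.8 reads. The liver label was checked against 25 entries for hepatocyte proteins such as albumin and apolipoprotein A-I, which together took 113427 to 224345 CPM in every fish. Markers of the exocrine pancreas, which in salmon can lie close to the liver, summed to 6.5 to 250 CPM. They exceeded 50 CPM in 1 control and 4 exposed fish at day 8 and in 1 control and 5 exposed fish at day 14. Without these fish no gene passed the test at day 8, and 0 genes passed for the difference between days. In whole tissue, fewer cells of a type and less RNA per cell cannot be told apart.

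Levels of different genes cannot be ranked here, because CPM is not corrected for gene length. Within a gene the 40 fish can be compared, subject to the scaling between libraries and to the make-up of the tissue.

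LOC106585360, the KLF9 entry chosen at day 8, was highest in the exposed fish of day 8. In day 8 controls its level ran from 0.377 to 2.31 CPM with a median of 1.24. In day 8 exposed fish it ran from 1.37 to 13.1 CPM with a median of 2.29. All 10 exposed fish lay above the control median and 5 lay above the highest control, so the groups overlapped.

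In day 14 controls LOC106585360 ran from 0.328 to 2.39 CPM (median 0.925), and in day 14 exposed fish from 0.451 to 2.60 CPM (median 0.962). These groups covered nearly the same range. The group means were 1.32 ± 0.648, 4.26 ± 4.51, 0.988 ± 0.682 and 1.14 ± 0.677 CPM (SD, n = 10) for day 8 controls, day 8 exposed, day 14 controls and day 14 exposed fish. The means of the other 3 groups differed from each other by less than 1 SD of their fish.

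In day 8 exposed fish, fish 1 and 2 stood apart. Their LOC106585360 levels were 13.1 and 12.4 CPM, while the other 8 exposed fish lay between 1.37 and 2.90 CPM with a mean of 2.14 ± 0.52 (SD, n = 8). The fitted log2 difference at day 8 was 1.69 ± 0.43 (SE) with all fish and 0.69 ± 0.36 without these 2 fish, an alternative chosen after seeing the data. Without fish 1 alone it was 1.29.

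The same 2 fish did not have the highest marker levels. Their pancreas markers summed to 22.5 and 27.7 CPM beside a median of 30.3 in their group, and their gut epithelium markers to 57.7 and 65.5 CPM beside a median of 66.7. Hepatocyte markers summed to 159449 and 205056 CPM, within the group's range of 128026 to 214842. Red cell markers summed to 2126 CPM in fish 1 and 1348 CPM in fish 2, beside a group range of 1348 to 2361 and a median of 1597. The part of tissue make-up in the levels of these 2 fish was not tested. Without all fish over 50 CPM of pancreas markers the day 8 difference of LOC106585360 was 2.10. That fit left out 4 exposed fish of day 8 but kept fish 1 and 2, which then weighed more in the group mean.

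**Figure D1:**
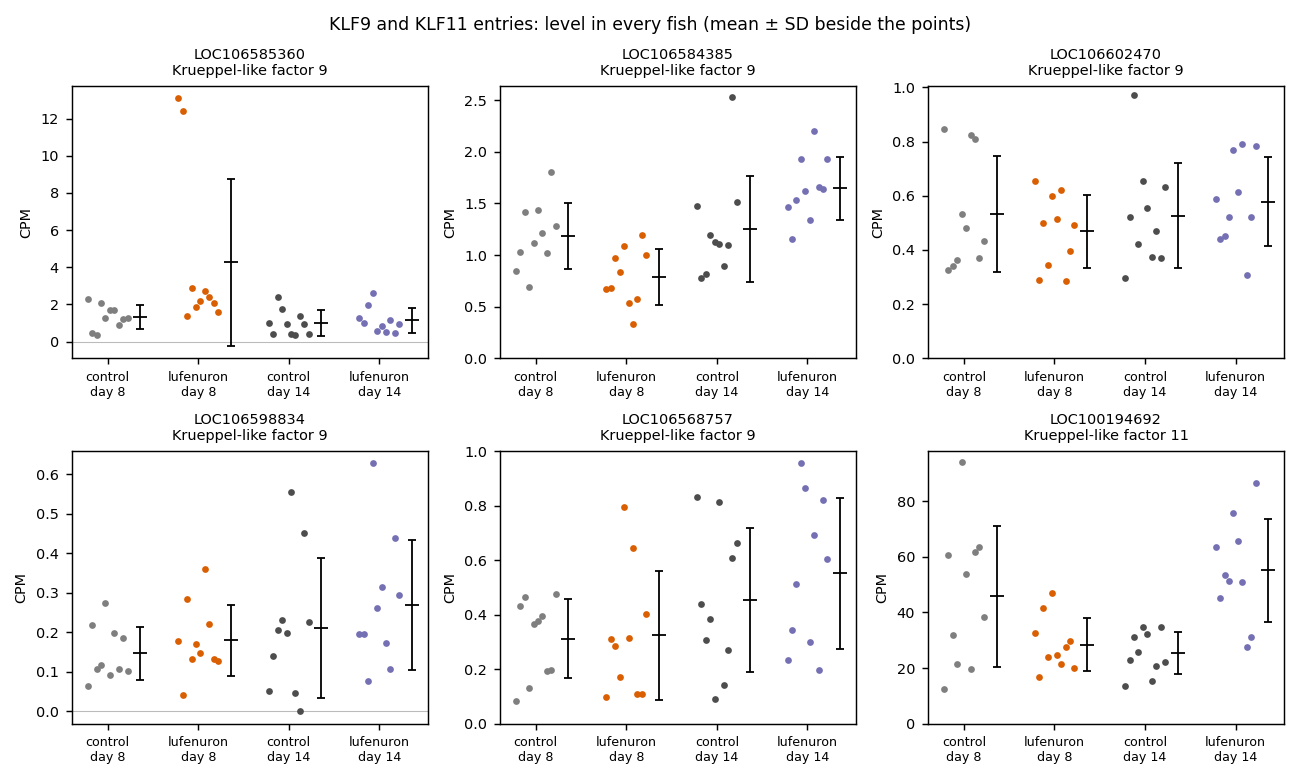
Level in CPM (vertical axis) of the 5 KLF9 entries and the KLF11 entry LOC100194692 in every fish of the 4 groups, 1 point per fish, with the mean and SD beside the points. LOC106585360 shows exposed fish 1 and 2 of day 8 at 13.1 and 12.4 CPM, and LOC100194692 is highest in day 8 controls and day 14 exposed fish.

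The next question was whether the KLF9 entries differed between exposed and control fish 7 days after treatment, in fish that did not choose them. At day 14 none of the 5 entries passed the test (edgeR quasi-likelihood test fitted over 30397 genes, Benjamini-Hochberg adjusted p under 0.05), and none had an unadjusted p under 0.05. In that comparison 0% of all genes passed, although before adjustment 2437 genes had p under 0.05 and 20 passed with DESeq2, so the members' count equals the background.

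For LOC106585360 the day 14 difference was 0.19 ± 0.43 on the log2 scale (SE, adjusted p = 0.944), with a 95% interval from -0.658 to 1.04. Without the 3 light control fish of day 14 it was -0.15. These fish were recorded at under 20 g, some of them at the length of heavier fish. With single fish left out the difference was between -0.04 and 0.43. No direction can be given for it.

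LOC106584385, a second KLF9 entry, had levels from 0.782 to 2.53 CPM (median 1.12) in day 14 controls and from 1.16 to 2.20 CPM (median 1.63) in day 14 exposed fish. All 10 exposed fish lay above the control median but none above the highest control, fish 9. The difference of 0.39 ± 0.20 gave p = 0.0517 and an adjusted p of 0.625 (edgeR). Over the 50 alternative fits that gave an adjusted p (DESeq2 gave none), that p ran from 0.192 to 0.943.

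The other 3 KLF9 entries had 465 to 1219 reads over all fish, beside 2882 for LOC106584385 and 4147 for LOC106585360. At day 14 LOC106602470 had 0.527 ± 0.195 CPM in controls and 0.579 ± 0.163 in exposed fish (SD, n = 10), a log2 difference of 0.13 ± 0.22 (edgeR adjusted p = 0.923). LOC106598834 had 0.211 ± 0.176 and 0.269 ± 0.164 CPM, a difference of 0.34 ± 0.42 (adjusted p = 0.880), with 0 reads in control fish 8. LOC106568757 had 0.456 ± 0.265 and 0.553 ± 0.277 CPM, a difference of 0.28 ± 0.38 (adjusted p = 0.898). The intervals of these differences reached 0.570, 1.17 and 1.03 upward and -0.303, -0.478 and -0.466 downward, and each covered 0.

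At day 8 the same 4 entries are given as values only. LOC106584385 was lower in exposed fish, with 0.694 to 1.80 CPM (median 1.16) in controls and 0.335 to 1.19 CPM (median 0.762) in exposed fish, a difference of -0.59 ± 0.20 (SE). 9 of the 10 exposed fish lay below the control median. The differences of LOC106602470, LOC106598834 and LOC106568757 were -0.18 ± 0.23, 0.27 ± 0.44 and 0.06 ± 0.39. LOC106585360, which was chosen for its day 8 difference, and LOC106584385 had differences of opposite sign at day 8. Of 10 exposed fish, 10 and 1 lay above the control median, as a description with no test.

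Between the sampling days 1 of the 4 tested KLF9 entries changed. LOC106584385 rose from day 8 to day 14 in exposed fish, from 0.789 ± 0.273 to 1.65 ± 0.308 CPM (SD, n = 10), and 9 of the 10 day 14 fish lay above the highest day 8 fish. The log2 change was 1.06 ± 0.20 (SE, edgeR adjusted p = 6.89e-05) and passed in all 51 alternative fits, at 0.97 to 1.44. In this comparison 34.9% of all genes passed, 17.7% as rises and 17.2% as falls, so that 1 of 4 tested KLF9 entries is near the background share.

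The other 3 tested entries did not pass in exposed fish. LOC106568757 had means of 0.324 ± 0.236 at day 8 and 0.553 ± 0.277 CPM at day 14, a log2 difference of 0.76 ± 0.39 (edgeR adjusted p = 0.125), which passed in 1 of 51 alternative fits, the one without day 8 exposed fish 5, at an adjusted p of 0.0365. The log2 difference was 0.59 ± 0.43 for LOC106598834 (adjusted p = 0.298) and 0.30 ± 0.22 for LOC106602470 (adjusted p = 0.313).

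In control fish none of the 4 entries passed from day 8 to day 14, in a comparison in which 19.3% of all genes did, 10.4% as rises and 8.97% as falls. The log2 differences were 0.08 ± 0.20 for LOC106584385 (edgeR adjusted p = 0.827), -0.01 ± 0.22 for LOC106602470 (adjusted p = 0.983), whose sign depends on the fish used, 0.52 ± 0.43 for LOC106598834 (adjusted p = 0.431) and 0.54 ± 0.39 for LOC106568757 (adjusted p = 0.348). None of the 4 had an unadjusted p under 0.05. Whether the change of LOC106584385 differed between exposed and control fish is the difference of the day 8 and day 14 effects, which was 0.98 ± 0.28. It is given without a test, as for all 6 entries, because it is built from the lufenuron contrasts that chose LOC106585360 and LOC100194692.

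**Figure D2:**
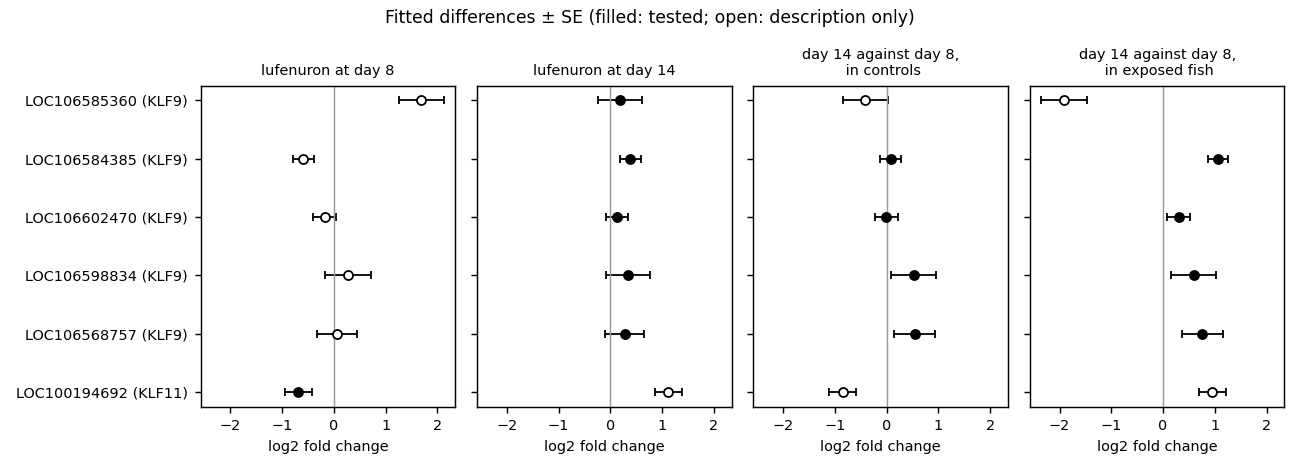
Fitted log2 fold change (horizontal axis) with its SE for the 6 entries in the lufenuron contrasts at both days and in day 14 against day 8, for control fish and for exposed fish. Filled points were tested and open points are descriptions; among filled points the change of LOC106584385 in exposed fish, 1.06 ± 0.20, is the 1 that passed.

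The KLF9 entries were then compared with each other by the log2 ratio of each pair within a fish. At day 14 none of the 10 pairs had a ratio that differed between exposed and control fish (two-sided permutation test with 100000 resamples, adjusted p = 0.932 in every pair, smallest unadjusted p = 0.312). For LOC106585360 against LOC106584385 the ratio was -0.70 ± 0.84 in exposed and -0.54 ± 1.07 in control fish (SD, n = 10), a difference of -0.16 with a 95% interval from -1 to 0.686. In controls none of the 6 pairs without LOC106585360 changed its ratio from day 8 to day 14 (permutation test, adjusted p = 0.911 in every pair, smallest unadjusted p = 0.283).

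In exposed fish the pairs were compared only after LOC106584385 had been seen to rise and LOC106602470 not to pass in the same fish, so their ratios are a description with no test. The log2 ratio of LOC106584385 to LOC106602470 was 0.68 ± 0.71 at day 8 and 1.48 ± 0.38 at day 14 (SD, n = 10), a difference of 0.81 ± 0.25 (SE). Against LOC106598834 and LOC106568757 the ratio of LOC106584385 differed between the days by 0.65 ± 0.39 and 0.28 ± 0.41.

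Across the 40 fish, after subtraction of the group means, the KLF9 entries had low correlations with each other. LOC106598834, LOC106568757 and LOC106602470 had only 465, 976 and 1219 reads over the 40 fish. How far such low counts limit r was not tested. Pearson's r between pairs of the 5 entries lay between -0.28 and 0.34, as a description over fish that share a depth and a scaling. LOC106585360 had r of -0.17 with LOC106584385 (Spearman's rho -0.18, r -0.15 without the 2 farthest fish) and -0.17 with the KLF11 entry LOC100194692 (rho -0.14, r -0.15). The highest pair of chosen entries was LOC106598834 with LOC100194692, at r 0.43 (rho 0.41, r 0.46), where LOC106598834 has 0 to 36 reads per fish.

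LOC100194692, the KLF11 entry, is described next. Its level ran from 12.4 to 93.9 CPM (median 46.1) in day 8 controls and from 16.6 to 47.0 CPM (median 26.0) in day 8 exposed fish. In day 14 controls it ran from 13.6 to 34.7 CPM (median 24.3), and in day 14 exposed fish from 27.7 to 86.5 CPM (median 52.2). The group means were 45.7 ± 25.4, 28.4 ± 9.63, 25.4 ± 7.66 and 55.1 ± 18.4 CPM (SD, n = 10) for day 8 controls, day 8 exposed, day 14 control and day 14 exposed fish, so the exposed fish were the lower group at day 8 and the higher one at day 14.

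At day 8, where its values were not used to choose it, LOC100194692 did not pass the test. The difference was -0.69 ± 0.26 on the log2 scale (SE, p = 0.0121, edgeR adjusted p = 0.164), with a 95% interval from -1.20 to -0.175. 9 of 10 exposed fish lay below the control median, and 1.63% of all genes passed in this comparison, 0.467% as higher and 1.16% as lower. Over 51 alternative fits the adjusted p ran from 0.0520 to 0.448.

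At day 14, the comparison that chose it, all 10 exposed fish lay above the control median of LOC100194692 and 8 above the highest control. The difference was 1.12 ± 0.26 (SE), between 1.02 and 1.19 with single fish left out and between 1.04 and 1.28 under the other alternatives. These counts and ranges describe the values that chose the gene and are no test of it. In this comparison 0 of 30397 genes passed. The difference from day 8 to day 14 was -0.85 ± 0.26 in controls, where all 10 day 14 fish lay below the day 8 median, and 0.95 ± 0.26 in exposed fish, where all 10 lay above it. The difference of the lufenuron effect between the days was 1.80 ± 0.37 for LOC100194692 and -1.5 ± 0.61 for LOC106585360, both as descriptions. Without exposed fish 1 and 2 of day 8 the latter was -0.50 ± 0.50. Of all genes, 0.0493% passed for this difference, 0.0263% as higher and 0.023% as lower.

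The other KLF11-named entries differed less between groups. LOC100194692 had been chosen for its day 14 difference and they had not, so this is a description and no result about the entries. LOC106567189 had group means of 21.0 ± 3.57, 20.4 ± 3.96, 24.2 ± 4.55 and 27.4 ± 5.10 CPM (SD, n = 10, in the order day 8 control, day 8 exposed, day 14 control, day 14 exposed). Its lufenuron differences were -0.04 ± 0.12 at day 8 (edgeR adjusted p = 0.907) and 0.18 ± 0.12 at day 14 (edgeR adjusted p = 0.731). LOC106607663 had 9.20 ± 1.82, 9.21 ± 1.83, 9.98 ± 2.09 and 12.0 ± 3.74 CPM, and lufenuron differences of 0.00 ± 0.15 and 0.27 ± 0.15 (edgeR adjusted p = 0.997 and 0.660).

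In exposed fish 17.7% of all genes passed as rises from day 8 to day 14, and both of these entries were among them. LOC106567189 rose by 0.43 ± 0.12 (edgeR adjusted p = 0.00513) and LOC106607663 by 0.38 ± 0.15 (edgeR adjusted p = 0.0374). Without the fish over 50 CPM of pancreas markers, which leaves 6 and 5 exposed fish, neither passed (adjusted p = 0.109 and 0.287), at changes of 0.41 and 0.32. LOC106607663 passed in 41 of 51 alternative fits and was lost when any of 7 fish was left out singly (day 8 exposed fish 6, 7, 9 or 10, or day 14 exposed fish 1, 5 or 10), whereas LOC106567189 passed in 50 of 51. For the deviations of single fish, LOC100194692 had r of 0.40 with LOC106567189 and 0.26 with LOC106607663 over 40 fish.

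KLF10, the closest relative of KLF11 in mammals and a factor with a daily rhythm in mouse liver, is represented by LOC106605529. At day 8 it had 30.8 ± 17.6 CPM in controls and 51.3 ± 15.0 with lufenuron, and at day 14 it had 4.47 ± 3.43 and 6.12 ± 3.61 CPM (SD, n = 10). It fell from day 8 to day 14, with a log2 change of -2.79 ± 0.43 in controls (edgeR adjusted p = 2.46e-05) and -3.07 ± 0.44 in exposed fish (edgeR adjusted p = 9.82e-07), where the lowest day 8 fish, at 24.9 CPM, lay above the highest day 14 fish, at 12.2 CPM. Its lufenuron differences, 0.74 ± 0.40 at day 8 and 0.45 ± 0.41 at day 14, did not pass (edgeR adjusted p = 0.377 and 0.826).

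**Figure D3:**
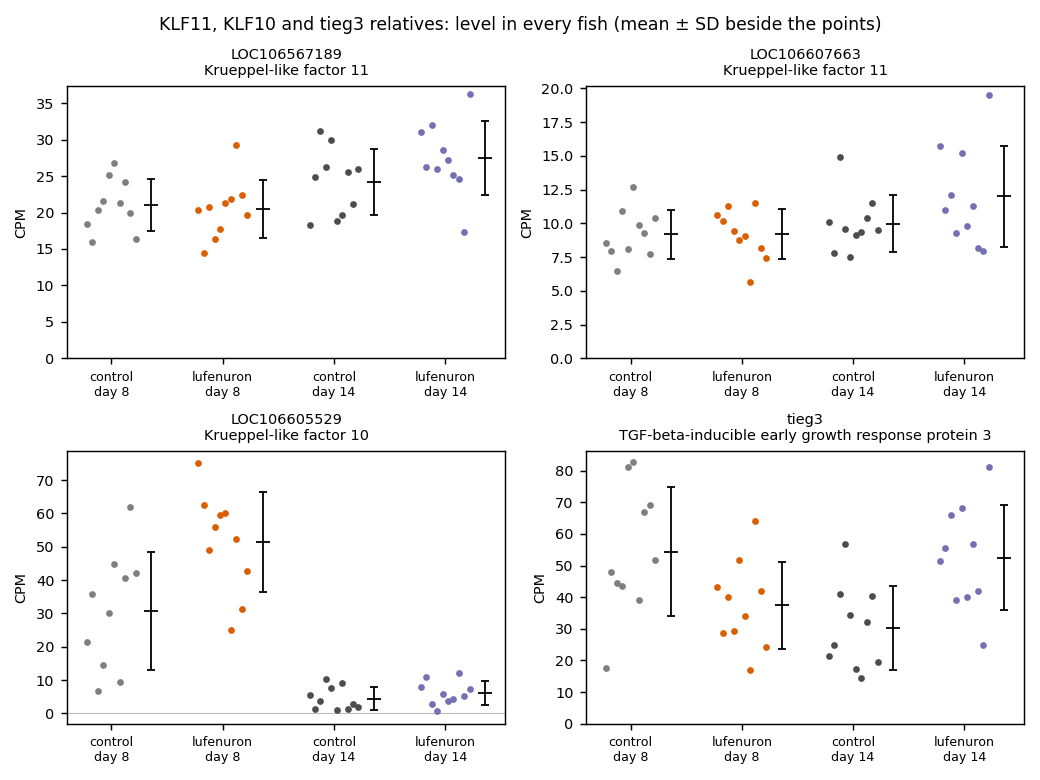
Level in CPM (vertical axis) of the KLF11 entries LOC106567189 and LOC106607663, the KLF10 entry LOC106605529 and tieg3 in every fish of the 4 groups, 1 point per fish, with the mean and SD beside the points. In exposed fish LOC106605529 was at least 24.9 CPM at day 8 and at most 12.2 CPM at day 14, in controls the days overlap between 6.78 and 10.2 CPM, and the mean of tieg3 is lowest in day 14 controls.

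Genes whose deviations from the group means were most like those of LOC100194692 over 40 fish were ranked by Pearson's r among 21420 genes with a mean of at least 1 CPM, as a description with no test. The first was LOC106601411, similar to the small GTPase Rap-2a, with r 0.75 (Spearman's rho 0.67, r 0.68 without the 2 farthest fish). LOC106584736, similar to transcription factor 12, had r 0.73 (rho 0.74, r 0.69), and LOC106566754, similar to peroxisome proliferator-activated receptor gamma, had r 0.72 (rho 0.72, r 0.70). LOC106568990, similar to serine/threonine-protein kinase N2, had r 0.71 (rho 0.62, r 0.60).

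The fourth in rank was tieg3, named transforming growth factor-beta-inducible early growth response protein 3, which is a name used for Klf11 in the mouse. It had r 0.71 (rho 0.72, r 0.62). Its group means were 54.4 ± 20.4, 37.4 ± 13.8, 30.2 ± 13.2 and 52.5 ± 16.6 CPM (SD, n = 10, in the same order of groups), so that its means stood in an order close to that of LOC100194692. It fell in controls from day 8 to day 14, with a log2 change of -0.85 ± 0.25 (edgeR adjusted p = 0.0126). Its lufenuron differences of -0.54 ± 0.24 at day 8 and 0.80 ± 0.25 at day 14 did not pass (edgeR adjusted p = 0.257 and 0.437), nor did the difference between the days, 1.34 ± 0.35 (edgeR adjusted p = 0.146). With total counts as the only scaling that last value was 1.56 ± 0.37 with an edgeR adjusted p of 0.0317. That scaling also moved the median difference of all genes to 0.25. Under it 411 genes passed as higher and 11 as lower, beside 8 and 7 in the main fit. How reads shared between duplicates, or between tieg3 and LOC100194692, were assigned is not given in the sources used here.

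The genes most like LOC106585360 had lower r. LOC106560964, similar to low-density lipoprotein receptor-related protein 5, had r 0.66 (rho 0.66, r 0.68 without the 2 farthest fish), and aidb had r 0.65 (rho 0.63, r 0.58). LOC106609866, similar to the palmitoyltransferase ZDHHC5, had r 0.64 (rho 0.58, r 0.61). LOC106580677, similar to the NADPH-cytochrome P450 reductase that feeds electrons to cytochrome P450 enzymes, had r 0.63 (rho 0.58, r 0.56), and LOC106594790, a protein numb homolog, had r 0.63 (rho 0.50, r 0.52). Ranked by rho, 1 of these 5 genes stayed among the first 5, beside 3 of 5 for LOC100194692. For LOC106585360 the 2 farthest fish were exposed fish 1 and 2 of day 8. A choice by likeness to it therefore favours genes that are high in these fish. Exposed fish 1 and 2 lay above the other 8 of their group in 4 of the 5 genes. LOC106560964 was the exception, with 130 and 82.3 CPM in these 2 fish beside 68.5 to 98.1. In LOC106580677 they had 334 and 254 CPM beside 125 to 231, in aidb 78.4 and 78.9 beside 47.9 to 74.3, in LOC106609866 5.60 and 5.53 beside 3.18 to 5.19, and in LOC106594790 3.90 and 3.72 beside 2.06 to 3.01. None of the 5 passed at day 8 or day 14, where 1.63% and 0% of all genes passed. The smallest adjusted p among the 5 was 0.0830 (edgeR, LOC106594790 at day 8).

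Gene order was read from the table of the RefSeq assembly Ssal_v3.1, in which 5 of the 6 entries have a place; the build of the deposited counts is not given, so no positions are printed. LOC106584385 and LOC106568757 both lie near a gene named SEC22b-B and one named C1orf21 homolog, a shared gene order among the KLF9 entries. LOC100194692 and LOC106567189 both lie between a grainyhead-like 1 gene and a gene named as a zinc finger protein, with a KIF13B gene further along. LOC106602470 lies among genes named as zinc finger proteins. Of these neighbours with a test, none passed at day 8 or day 14, where 1.63% and 0% of all genes passed.

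Genes around the KLF factors were counted in 6 lists, to be read beside the shares of all genes. With lufenuron at day 8, 0.467% of all genes passed as higher and 1.16% as lower, and at day 14 0% passed. From day 8 to day 14, 10.4% rose and 8.97% fell in controls, and 17.7% rose and 17.2% fell in exposed fish. Of 41 other Krueppel-like and Sp factors that were measured, 1 was higher and 1 lower with lufenuron at day 8, and 0 passed at day 14. The 41 include LOC106605529, LOC106567189 and LOC106607663 but not tieg3. LOC106613686, named Krueppel-like factor 2, had 4.63 ± 1.53 CPM in exposed fish and 3.06 ± 0.691 in controls (SD, n = 10, log2 difference 0.60 ± 0.16, edgeR adjusted p = 0.0389). LOC106588795, similar to Sp4, had 0.790 ± 0.177 CPM in exposed fish and 1.27 ± 0.317 in controls (log2 difference -0.69 ± 0.18, edgeR adjusted p = 0.0399). Without exposed fish 1 and 2 of day 8 the differences were 0.66 and -0.76 and did not pass (both adjusted p = 0.0563, edgeR, with fewer fish), and with total counts as the only scaling 0 were higher and 1 lower. Over time the list had 4 rises and 5 falls in controls and 9 rises and 9 falls in exposed fish, with a median log2 change of -0.09 in exposed fish beside -0.0291 for all genes. With total counts as the only scaling, which moves the median of all genes in exposed fish to 0.16, the list had 11 rises and 3 falls there, and 3 rises and 6 falls in controls.

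Among 54 measured genes of glucocorticoid signalling and response, the hormone system that induces KLF9 in other vertebrates, 1 was higher with lufenuron at day 8. LOC106565346, similar to the receptor chaperone FKBP5, had 91.4 ± 23.7 CPM in exposed fish and 56.2 ± 12.2 in controls (log2 difference 0.70 ± 0.17, edgeR adjusted p = 0.0293). Without exposed fish 1 and 2 of day 8 it was 0.72 ± 0.19 and did not pass (edgeR adjusted p = 0.0668), and with total counts as the only scaling 0 higher and 1 lower. From day 8 to day 14, 17 of the 54 fell and 2 rose in controls, and 24 fell and 3 rose in exposed fish, with median log2 changes of -0.36 and -0.39. Under total-count scaling the exposed fish had 21 falls and 7 rises. LOC106592479, similar to the growth brake DDIT4, went from 8.96 ± 4.91 to 0.528 ± 0.712 CPM in controls (log2 change -4.06 ± 0.51, edgeR adjusted p = 1.16e-06). LOC106612265, similar to the glucocorticoid-induced leucine zipper TSC22D3, went from 56.9 ± 12.8 to 18.6 ± 5.40 CPM in exposed fish (log2 change -1.61 ± 0.23, edgeR adjusted p = 8.28e-07).

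In 45 genes of thyroid hormone signalling, 2 were higher with lufenuron at day 8. LOC106611368, similar to the type II deiodinase that activates thyroid hormone, had 125 ± 62.7 CPM in exposed fish and 41.7 ± 23.9 in controls (log2 difference 1.58 ± 0.38, edgeR adjusted p = 0.0267), and LOC106596748, similar to the receptor partner RXR-gamma, had a log2 difference of 0.83 ± 0.19 (edgeR adjusted p = 0.0199). Without exposed fish 1 and 2 the differences were 1.33 and 0.70 and did not pass (edgeR adjusted p = 0.0924 and 0.0753). Over time 10 fell and 2 rose in controls, and 15 fell and 6 rose in exposed fish. With total counts as the only scaling the split in exposed fish was 9 falls and 8 rises. Without the fish over 50 CPM of pancreas markers 4 fell and 2 rose in controls, and 10 fell and 3 rose in exposed fish.

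In 77 genes of the circadian clock and its output factors, some of which are also in the glucocorticoid list, 2 were higher with lufenuron at day 8. LOC106565112, similar to the clock repressor cryptochrome-1, had a log2 difference of 0.89 ± 0.20 (edgeR adjusted p = 0.0166), and LOC106607162, similar to thyrotroph embryonic factor, a clock output factor, one of 0.59 ± 0.15 (edgeR adjusted p = 0.0341). Without exposed fish 1 and 2 these were 0.68 and 0.56 and did not pass (edgeR adjusted p = 0.0795 and 0.0817). Over time 20 fell and 11 rose in controls, and 28 fell and 10 rose in exposed fish. LOC106607162 fell from 10.9 ± 1.93 to 3.21 ± 0.590 CPM in exposed fish (log2 change -1.77 ± 0.15, edgeR adjusted p = 2.12e-10). With total counts as the only scaling the split in exposed fish was 19 falls and 13 rises.

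In 58 genes of TGF-beta signalling, the pathway that induces KLF10 and KLF11 in mammals, 2 were higher with lufenuron at day 8. LOC106600502, a ski-like protein of the family of Smad corepressors, had 6.63 ± 3.29 CPM in exposed fish and 2.76 ± 0.762 in controls (log2 difference 1.26 ± 0.22, edgeR adjusted p = 0.00384). LOC106605446, similar to the shared mediator Smad4, had 1.64 ± 0.658 CPM in exposed fish and 0.648 ± 0.461 in controls (log2 difference 1.34 ± 0.33, edgeR adjusted p = 0.0277). LOC106568180 and smad4, also named for Smad4, did not pass at day 8. LOC106568180 had 4.05 ± 0.404 CPM in day 8 exposed fish and 3.84 ± 0.682 in day 8 controls. Without exposed fish 1 and 2 LOC106600502 passed at 1.29 (edgeR adjusted p = 0.0120) and LOC106605446, at 1.34, did not (edgeR adjusted p = 0.0557). Over time 11 fell and 0 rose in controls, and 22 fell and 2 rose in exposed fish, with median log2 changes of -0.26 and -0.34. Scaled by total counts, the exposed fish had 12 falls and 3 rises, and without the fish over 50 CPM of pancreas markers 14 falls and 0 rises. The list's median log2 difference at day 8 was 0.20 beside 0.0052 for all genes.

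Of 26 genes of the Sin3 and histone deacetylase corepressors, the partners of KLF11, 0 passed at day 8 or day 14 (edgeR; the smallest p in the list at day 8 was that of LOC106586674, similar to inhibitor of growth protein 1, at an adjusted p of 0.187). Over time 4 rose and 2 fell in controls, and 11 rose and 3 fell in exposed fish. Under total-count scaling there were 3 rises and 3 falls in controls, and 16 rises and 1 fall in exposed fish. The scaffold sin3a fell in both, from 11.6 ± 3.26 to 5.20 ± 1.72 CPM in controls (log2 change -1.15 ± 0.19, edgeR adjusted p = 4.88e-05) and from 14.9 ± 3.08 to 5.77 ± 2.19 CPM in exposed fish (log2 change -1.37 ± 0.19, edgeR adjusted p = 5.93e-07). The subunit sp30l, named SAP30L, rose in controls from 3.95 ± 1.5 to 9.93 ± 4.08 CPM (log2 change 1.33 ± 0.24, edgeR adjusted p = 0.000184).

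**Figure D4:**
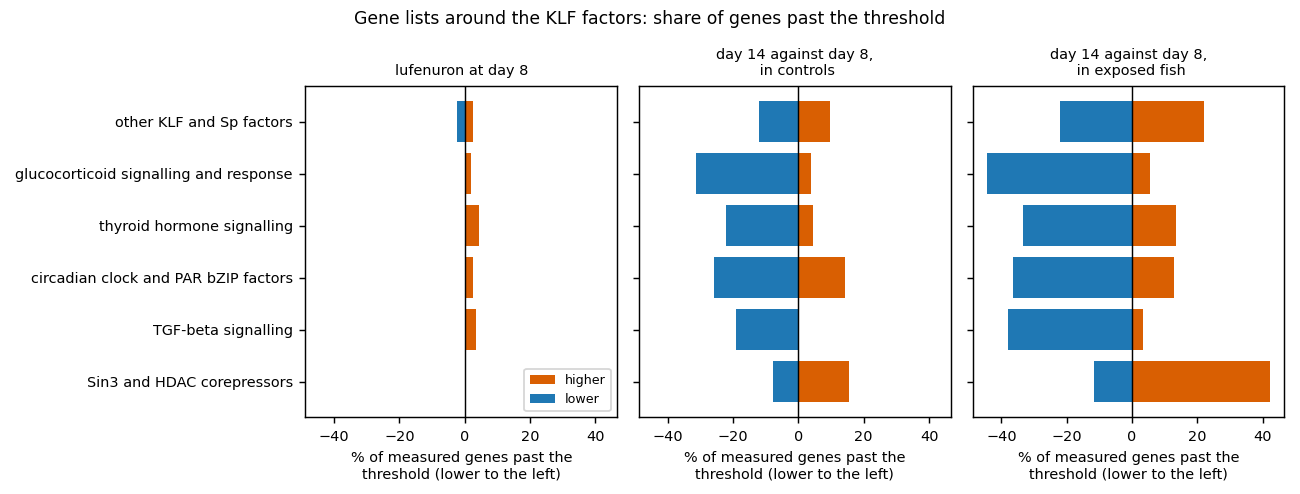
Percent of the measured genes of each list (horizontal axis) that passed the test as higher (right) or lower (left) with lufenuron at day 8, and at day 14 against day 8 for each kind of fish. The glucocorticoid, thyroid, clock and TGF-beta lists lie mainly to the left over time, and the corepressor list has 11 rises and 3 falls in exposed fish.

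None of the 6 lists had a gene past the threshold for lufenuron at day 14, where 0 of 30397 genes passed. Without the fish over 50 CPM of pancreas markers, which leaves 6 exposed fish at day 8, 0 genes passed there, list genes included. Most of the differences of the list genes named above stayed close in size. LOC106611368 was at 1.70, LOC106600502 at 1.36, LOC106605446 at 1.16, LOC106565112 at 1.02, LOC106596748 at 1.01, LOC106565346 at 0.79, LOC106607162 at 0.55 and LOC106588795 at -0.68 on the log2 scale, while LOC106613686 was at 0.29. Red cell markers also moved with the sampling day: of 28 measured, 12 rose in controls and 18 in exposed fish, and 0 fell. Their summed level ran from 1348 to 2705 CPM in day 8 fish and from 1530 to 4780 CPM in day 14 fish, while 8 of 12 measured gut epithelium markers and 8 of 21 hepatocyte markers fell in exposed fish. The summed gut markers of exposed fish had a median of 66.7 CPM and a highest value of 343 at day 8, and a median of 62.7 CPM at day 14. Single genes varied widely at day 8, with cdh17 at 12.0 ± 23.6 and vil1 at 10.9 ± 27.9 CPM (SD, n = 10). With lufenuron at day 14, 19 of 21 hepatocyte markers were lower and 2 higher, with a median log2 difference of -0.27. Of 24 pancreas markers, 21 were higher and 3 lower there (median 1.98). At day 8, 16 hepatocyte markers were higher and 5 lower (median 0.09), and 22 pancreas markers higher and 2 lower (median 1.42). None of the hepatocyte or pancreas markers passed at either day, beside 1.63% of all genes at day 8 and 0% at day 14. The part of the markers in the lufenuron differences and in the changes over time was not tested.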

How the data were processed

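Reads per gene in liver of 40 fish were deposited by the authors as raw counts; HISAT2, HTSeq, Cufflinks and DESeq2 appear, with no version, in the submitters' processing notes. The sources used here do not give the genome build, the strand or how reads shared by duplicates were handled. Genes were kept by edgeR 4.0.16 filterByExpr (minimum count 10, minimum total 15), which left 30397 genes, scaled by TMM and fitted over all 40 fish with a robust quasi-likelihood model of 4 group means (R 4.3.3, limma 3.58.1). P-values were Benjamini-Hochberg adjusted over all genes tested, with a threshold of 0.05. Log2 CPM used a prior count of 2. Ratios between KLF9 entries at day 14, and over time in controls, were tested by permutation (100000 resamples, SciPy 1.17.1) and adjusted over the pairs. The fit was tested on simulated data. None of the 780 library pairs agreed within sampling noise. A date stands in place of the symbol in 5 entries.

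All 6 entries are named, with the 5 genes of highest Pearson r for LOC106585360 and for LOC100194692, other KLF9, KLF10 and KLF11 entries, and up to 4 list genes of smallest p per contrast. The genes and lists were chosen with earlier results of these data known. The comparison without exposed fish 1 and 2, the pairs in exposed fish, the recomputed lists and the group values of tieg3 were chosen after seeing the data. DESeq2 1.42.0, other scalings, filters, covariates and left-out fish were tried as alternatives.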

Additional observations from a re-analysis of the deposited data

Results flagged for a closer look

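In day 14 controls, fish 9 had 2.53 CPM of LOC106584385, far above the other 9 fish of its group. Fish 9 was also the 1 day 14 control over 50 CPM of pancreas markers, at 137 CPM, and a link between the values was not tested. In the same group, fish 3 had 0.972 CPM of LOC106602470, beside 0.654 in the next fish, and only just passed as an outlier. In all, 24 groups of 10 fish were examined for such a fish, and chance alone picks out about 1 in 20 groups.

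The lufenuron effect on LOC106600502, the ski-like gene of the TGF-beta list, differed between the days by -1.53 ± 0.31 on the log2 scale (edgeR adjusted p = 0.0478). The effect was 1.26 ± 0.22 at day 8 and -0.27 ± 0.22 at day 14. The difference did not pass without the fish over 50 CPM of pancreas markers (-1.91 ± 0.36, adjusted p = 0.103) or without exposed fish 1 and 2 of day 8 (-1.56 ± 0.32, adjusted p = 0.0705).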

How the results depend on the processing

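The number of genes past the threshold at day 8 was 494. It was 1048 with DESeq2, 0 without fish over 50 CPM of pancreas markers, 72 without exposed fish 1 and 2, and 128 to 1246 with single fish left out. At day 14 it was 0, with DESeq2 20 and with single fish left out 0 to 1. For the difference between days it was 15. That count was 422 with total counts as the only scaling, 3 with no filter, 133 with DESeq2, 4 with body weight as a covariate, 5 without the light control fish, 0 without the pancreas-marker fish, 4 without exposed fish 1 and 2, and 0 to 104 with single fish left out. Total-count scaling changed the share of lower calls from 71.3% to 89.7% at day 8, from 46.4% to 60.9% in controls, from 49.3% to 24.3% in exposed fish and from 46.7% to 2.61% for the difference. It moved the median of all genes to 0.19 at day 14 and 0.25 for the difference.

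LOC106585360 at day 14 was -0.15 without the light control fish and -0.04 to 0.43 with single fish left out. LOC106602470 at day 14 was -0.07 without the pancreas-marker fish. Its difference in controls was 0.01 with DESeq2, 0.00 without the pancreas-marker fish and -0.15 to 0.09 with single fish left out; that of LOC106584385 was -0.09 to 0.17. The cause was not tested.

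With the replicate number as a block, 231 genes passed at day 8 and 8 for the difference, and LOC106602470 in controls was 0.01. Fish of the same number correlated between -0.23 and 0.30 in their deviations. In the 4 group pairs 3, 1, 3 and 2 of 10 matched their own number best. If the number meant nothing, about 1 of 10 would match in each group pair. The mean r of fish of the same number lay between -0.04 and 0.03 in the 4 group pairs. Whether fish of the same number share more than that number was not tested.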
